A study of Rattus norvegicus with 4 samples.

Results

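Genes of sodium, calcium and chloride channels, with the TRP, acid-sensing and P2X channels, were compared in ischaemic rat cortex between estradiol and placebo treatment. Members were chosen with earlier results of these data known. The rule took gene symbols of the families Scn, Scnn, Cacn, Hcn, Clcn, Trpc, Trpv, Trpm, Ryr, Itpr, Asic and P2rx, and no measured value. Members numbered 49 of 4736 genes with a probe set of their own, measured by 81 probe sets. Values of a gene are those of whichever of its probe sets had the highest mean, unless another is named. No probe set carried an Hcn symbol in the annotation used here, so HCN channels are not described.

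All animals were ovariectomised female rats whose middle cerebral artery was closed for 2 h from inside the vessel, per the series design text. The estradiol group had replacement with 17beta-estradiol and the placebo group did not. Each of the 4 arrays, an Affymetrix GeneChip for rat, carried RNA combined from 3 animals, so that 6 animals in 2 separate pools stand behind each group. The labels give the tissue as cortex ipsilateral to the stroke. Dose and age are not stated there, and of the time points in the design text the labels carry only the number 6 inside their codes, so no time is attached to the values. There is no array of unoperated, intact or contralateral cortex in the comparison, so every value refers to injured tissue without ovaries. The pools are numbered 1 and 2 within each group.

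Ion channels are pores through which ions cross membranes. Voltage-gated sodium channels carry the rising phase of the action potential, and voltage-gated calcium channels turn depolarisation into calcium entry that triggers transmitter release and gene transcription. In ischaemic brain, failing ion gradients depolarise neurons, glutamate is released and calcium overload contributes to cell death. Acid-sensing, TRP and P2X channels open in response to protons, to lipids, heat or calcium stores, and to extracellular ATP, all of which change in injured tissue. Ryanodine and IP3 receptors release calcium from the endoplasmic reticulum, and ClC proteins move chloride across plasma or endosomal membranes.

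The background of an array was its highest value among 23 foreign (bacterial, yeast or mouse) control probe sets, which was 33.9 and 37.8 for estradiol 1 and 2 and 37.8 and 30.1 for placebo 1 and 2. Intensities are linear values as deposited, and median intensities of the arrays lay between 55.0 and 57.8. Of 21 measured neuron markers 18 were above background on all 4 arrays, as were 12 of 14 astrocyte and 9 of 9 oligodendrocyte markers, while Slc17a7, the vesicular glutamate transporter of cortical excitatory neurons, was above it on none. No measured marker was listed at 0. In pooled tissue, fewer cells of a type and less RNA per cell cannot be told apart.

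Probe sets for 28 of the 49 channel genes were above background on all 4 arrays, 11 on some and 10 on none. Those on none were Scn2b, an auxiliary sodium channel subunit, Scn10a, a sodium channel of sensory neurons, Scnn1b, Cacna1s, the alpha-1 subunit of skeletal muscle, Itpr2, Ryr2, Clcn1, the chloride channel of skeletal muscle, and P2rx1, P2rx5 and P2rx7. Their values refer to these probe sets, and an intensity near background does not show that a transcript was absent. Intensities of different probe sets were not ranked against each other. Probe sets made from 1 sequence entry differed by 10.4-fold for P2rx2, 6.16-fold for Scn4a and 5.21-fold for Scn3a. The intensity floor, a mean over the 4 arrays of 37.5, left 34 of the 49 genes and 44 of their 81 probe sets for testing.

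**Figure D1:**
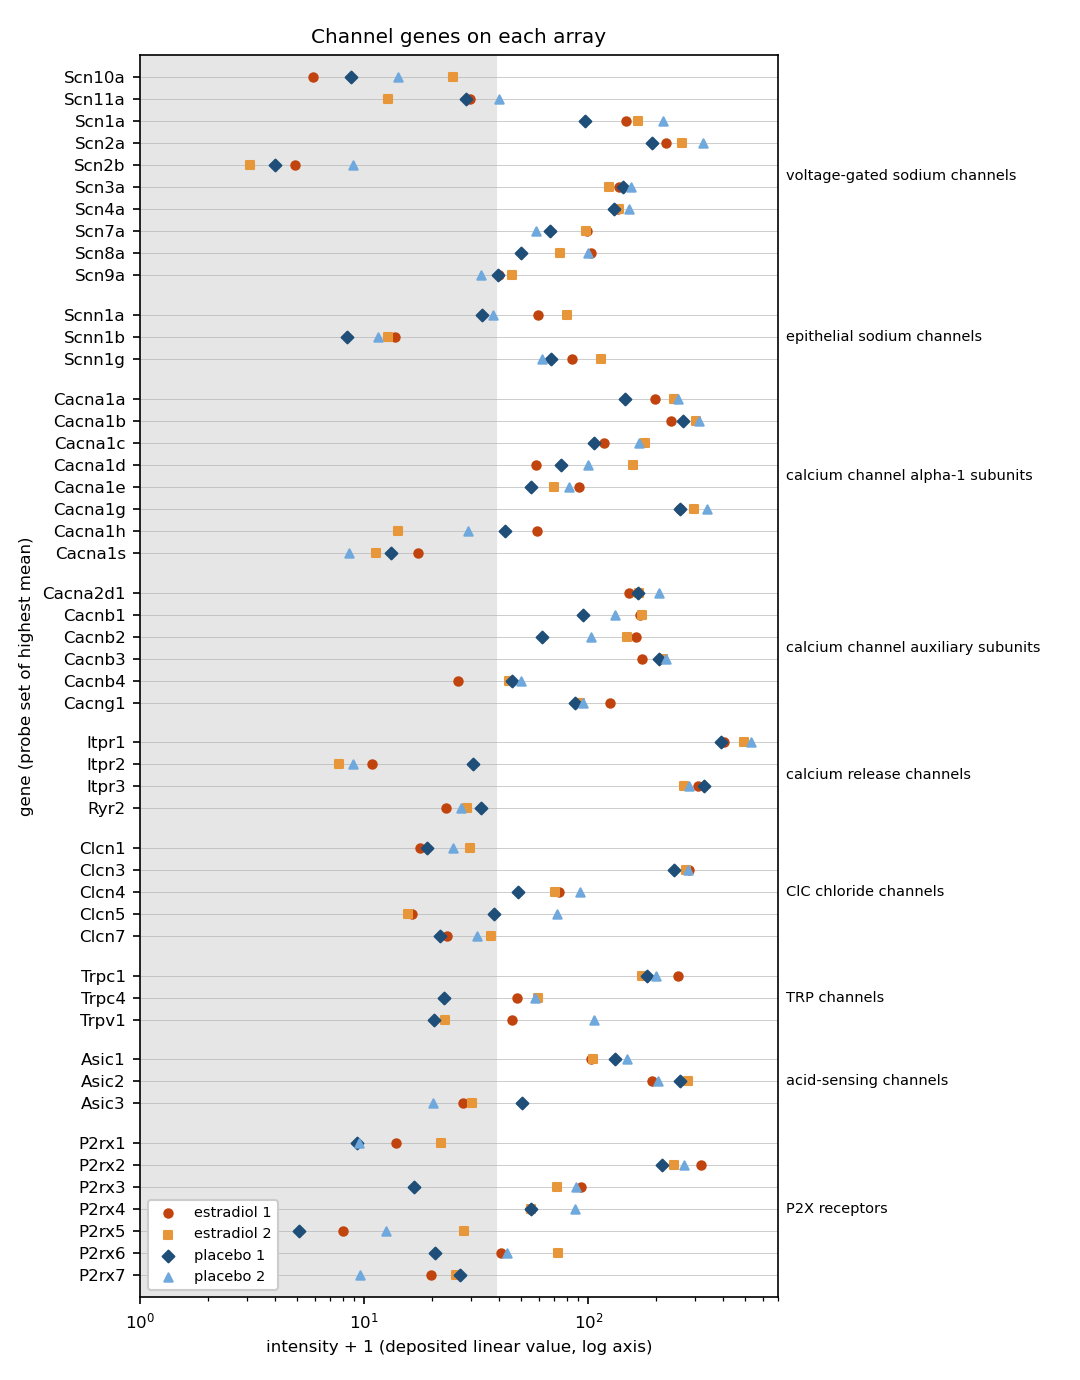
Intensity of the 49 channel genes on each array, as the deposited linear value plus 1 on a log axis, grouped by family. Each symbol is 1 pool of 3 animals, and grey marks values up to 37.8, the highest foreign control on any array. For Scnn1a, Scnn1g, Cacnb1, Cacnb2, Scn7a and, narrowly, Scn9a both estradiol symbols lie to the right of both placebo symbols. The same holds for Scnn1b and P2rx1, which lie within the grey area.

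No channel gene passed the adjusted threshold between estradiol and placebo. With limma and Benjamini-Hochberg adjustment over 5244 probe sets, 0 probe sets were called, 0% of those tested, and the smallest adjusted p among the channel genes was 0.998. At an unadjusted p below 0.05 in limma, 1 of 34 channel genes was higher with estradiol, 2.94%, against 1.70% of all 3181 tested genes, and 0 were lower, against 0.880%. Over the tested probe sets of the same genes, 2 of 44 were higher and 1 was lower at that level, against 1.74% and 1.33% of all tested probe sets. Over all probe sets this split of 91 higher to 70 lower became 71 to 90 after median centring. Both estradiol pools lay above both placebo pools for 6 channel genes, 17.6% against 16.1% of all genes, and below them for 4, 11.8% against 14.0%. These shares were near those of all genes. The median log2 fold change, on the log2(intensity + 16) scale, was 0.10 over the tested channel genes and 0.01 over all tested genes, with 21 channel genes above 0 and 13 below. Over all 49, tested or not, the median was also 0.10. With 2 pools per group, an exact permutation test of a single gene, two-sided, cannot go below p = 0.333.

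**Figure D2:**
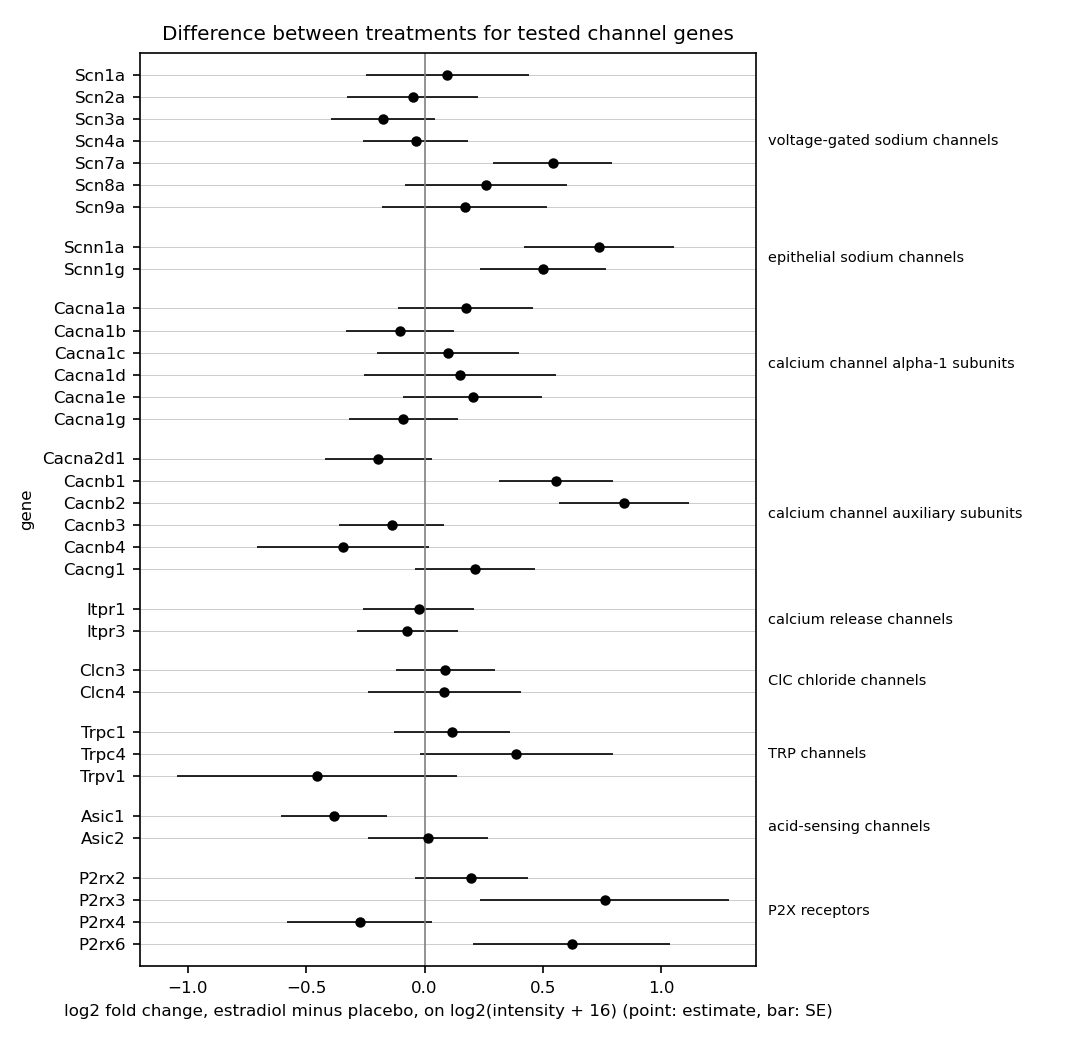
Log2 fold change between estradiol and placebo for the 34 tested channel genes, with 2 pools per group. Points are limma estimates on the log2(intensity + 16) scale and bars are 1 SE, and the vertical line marks no difference. Cacnb2 lies farthest to the right at 0.84 and Trpv1 farthest to the left at -0.45, and most bars cross the line.

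Among the pore-forming subunits of voltage-gated sodium channels, Scn1a, Scn2a and Scn8a had overlapping treatment groups, and Scn3a had slightly lower intensities in both estradiol pools than in either placebo pool. Scn2a, which encodes Nav1.2 of excitatory neurons and unmyelinated axons, stood at 222 and 261 in the estradiol pools against 192 and 324 in the placebo pools. The placebo pools enclosed both estradiol pools, and the log2 fold change was -0.05 with a 95% interval from -0.70 to 0.60. Scn1a, encoding Nav1.1 of inhibitory interneurons, stood at 146 and 165 in the estradiol pools against 95.3 and 214 in the placebo pools, again with the placebo pools at both ends. Scn8a, the gene of Nav1.6 at the axon initial segment and nodes of Ranvier, had 102 and 73.8 against 48.8 and 98.4. Its log2 fold change was 0.26 ± 0.34 (SE), and its other tested probe set gave -0.20. Scn3a, the sodium channel prominent in developing brain, stood at 136 and 123 in the estradiol pools against 142 and 154.5 in the placebo pools. Its groups did not overlap, and its log2 fold change of -0.18 ± 0.22 (SE) was the lowest of the family. A second Scn3a probe set, above background in estradiol 2 alone, pointed the other way, at 31.6 and 42.2 against 4.0 and 28.9.

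Scn7a had the highest log2 fold change of the 7 tested sodium channel genes. It encodes Nax, a channel that responds to the extracellular sodium level and is known from glia of sensory circumventricular organs. Its intensity was 97.8 and 96.9 in the estradiol pools against 66.6 and 57.5 in the placebo pools. The groups did not overlap, and the log2 fold change was 0.54 ± 0.25 (SE) with an unadjusted p of 0.0664 in limma, between 0.46 and 0.62 with any 1 array left out. Another Scn7a probe set was at background on all 4 arrays. Scn4a, the channel of skeletal muscle, stood at 135 and 136 against 129.5 and 150.3. Its other 2 probe sets did not follow this one: 1 was at background throughout, and 1 stood at 62.4 and 39.4 with estradiol against 13.8 and 23.2 with placebo, at background in both placebo pools and at least 1.47-fold higher with estradiol. Scn9a, known from sensory and sympathetic neurons, was close to background at 38.9 and 44.5 against 38.6 and 32.1. Its estradiol pools lay narrowly above both placebo pools. The family's median log2 fold change was 0.10, with 4 genes on the positive and 3 on the negative side.

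Both tested epithelial sodium channel genes had higher intensities in both estradiol pools than in either placebo pool. That order was found in 16.1% of all tested genes. Epithelial sodium channels, known from kidney, lung and colon, are constitutively open and set sodium reabsorption there. Scnn1a, the alpha subunit, stood at 58.5 and 79.2 in the estradiol pools against 32.6 and 36.5 in the placebo pools, with a log2 fold change of 0.74 ± 0.32 (SE) and an unadjusted p of 0.0506 in limma. Placebo 1 was at background for it. Scnn1g, the gamma subunit, stood at 83.8 and 113 in the estradiol pools against 67.2 and 61.4 in the placebo pools, with a log2 fold change of 0.50 ± 0.27 (SE) and an unadjusted p of 0.0984. Neither passed the adjusted threshold, and neither changed sign with any 1 array left out, with ranges from 0.56 to 0.91 and from 0.32 to 0.69. The values of Scnn1b, the beta subunit, were 12.7 and 11.8 against 7.40 and 10.5, all at background, so no fold is given.

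The promoter window of Scnn1g is shown because the gene had separated groups and its window holds matches to 1 arm of the estrogen receptor's motif. From RefSeq on GRCr8, it covers 250 bases before and 50 after the start, at chr1:185735975-185736274 on the + strand. Capitals mark GGTCA on either strand, 1 arm of the estrogen response element, in which GGTCA and TGACC stand 3 bases apart.

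Scnn1g: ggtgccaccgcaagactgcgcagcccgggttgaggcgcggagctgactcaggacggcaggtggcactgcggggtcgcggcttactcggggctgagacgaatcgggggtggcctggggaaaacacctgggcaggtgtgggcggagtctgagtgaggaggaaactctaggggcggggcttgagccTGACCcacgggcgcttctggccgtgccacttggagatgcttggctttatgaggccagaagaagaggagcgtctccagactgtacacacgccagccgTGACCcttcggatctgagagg

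The window holds 2 such matches, both read as TGACC on this strand. The arm GGTCA was found in 40.5% of 33469 windows of the same length and in 16 of the 46 windows of 39 channel genes, 34.8%. The whole element was found in 9 of all windows, 0.0269%, and in 0 of the 46. A match of letters is not a binding site, and windows without one say nothing about the receptor.

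Alpha-1 subunits form the pore of voltage-gated calcium channels, and the 6 tested genes differed little between treatments, with log2 fold changes from -0.10 to 0.20. Cacna1g, the T-type channel of low-threshold firing, stood at 254 and 296 in the estradiol pools against 255 and 336.5 in the placebo pools and the groups overlapped. Its log2 fold change was -0.09 with a 95% interval from -0.62 to 0.44. Cacna1b, the N-type channel of presynaptic terminals, stood at 232.5 and 302 against 264 and 310, the lowest value of the family at -0.10 ± 0.23 (SE). Its other probe set, at 230 and 176 against 165.5 and 163, gave 0.27. Cacna1e, the R-type channel, had the highest value, 0.20 ± 0.29 (SE), from 90.0 and 69.6 against 54.3 and 81.4, with overlapping groups.

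Cacna1a, the P/Q-type channel of fast transmitter release, was measured by 4 probe sets, each with its lowest intensity in placebo 1. Its main probe set stood at 197 and 240 in the estradiol pools against 145 and 250 in the placebo pools. Another stood at 66.4 and 97.3 against 16.5 and 147.8, so placebo 1 was at background and placebo 2 was the highest of the 4 arrays. The 3 tested probe sets gave 0.17, 0.41 and 0.10, none larger than its SE. The last, below the intensity floor, stood at 33.0 and 62.8 against 15.2 and 23.8. Estradiol 1 and both placebo pools were at background there. The bound, at least 1.35-fold higher with estradiol, therefore rests on estradiol 2 alone. The L-type genes Cacna1c and Cacna1d were highest in estradiol 2, at 177 and 158, and had log2 fold changes of 0.10 and 0.15. Cacna1h, another T-type gene, was above background only in estradiol 1, at 57.7, and placebo 1, at 41.4, and was not tested.

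Among the auxiliary subunits of calcium channels, Cacnb1 and Cacnb2 had higher intensities in both estradiol pools than in either placebo pool, Cacnb4 had lower ones and Cacnb3 overlapped. Beta subunits bind the alpha-1 subunit inside the cell, carry it to the membrane and shift its gating. Cacnb2 stood at 162 and 148 in the estradiol pools against 61.4 and 101 in the placebo pools. Both estradiol pools lay above both placebo pools, and the log2 fold change was 0.84 ± 0.27 (SE), with a 95% interval from 0.20 to 1.48. Its unadjusted p of 0.0162 in limma was the only one below 0.05 among the 34 genes, and its adjusted p was 0.998. Placebo 1 was the lower placebo pool, and without it the log2 fold change was 0.54. Cacnb2 was past that unadjusted level without placebo 2 but not without any 1 of the other arrays. A second Cacnb2 probe set stood at 37.7 and 39.4 against 15.4 and 51.6, with overlapping groups, and fell short of the intensity floor.

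Cacnb1, the beta subunit first known from skeletal muscle and also present in brain, stood at 169 and 172 in the estradiol pools against 93.8 and 131 in the placebo pools. The estradiol pools were nearly equal and above both placebo pools, and the log2 fold change was 0.56 ± 0.24 (SE) with an unadjusted p of 0.0517. Cacnb3 had 173 and 214 against 206 and 221 and a log2 fold change of -0.14 ± 0.22 (SE). Cacnb4 had the lowest value of the family, -0.35 ± 0.36 (SE), from 25.3 and 43.4 in the estradiol pools against 44.6 and 49.3 in the placebo pools. Its estradiol pools lay below both placebo pools, and estradiol 1, without which the value was -0.08, was at background. Cacna2d1, the alpha-2/delta subunit that binds gabapentin, stood at 151 and 167.5 against 165 and 206. Cacng1, the gamma subunit of skeletal muscle channels, had 124 and 91.2 against 86.0 and 93.8. The differences between the beta subunits were not tested.

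Marker lists of other tissues and cell types also differed between treatments in their values, and no gene of these lists passed the adjusted threshold in limma. Striatum markers had 6 of 9 tested genes above 0, with a median of 0.45, and their sums over 11 measured genes were 2883 and 2732 with estradiol against 1931 and 2071. In this list 3 genes were past an unadjusted p of 0.05 in limma, all higher with estradiol, 33.3% against 1.70% of all tested genes. Groups were separated for 4, all higher with estradiol, 44.4% against 16.1%. Tac1, the substance P precursor, stood at 381 and 408 against 108 and 116, with a log2 fold change of 1.68. Penk, the enkephalin precursor, had 1.33 and Drd1, a dopamine receptor of striatal neurons, had 0.81. These 3 were above background on all arrays, while Drd2, the other main striatal dopamine receptor, was so on none. The 3 tested genes below 0 were Pdyn, Adora2a and Chat, at -0.16, -0.03 and -0.44.

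Blood cell markers were on the other side, with 6 of 9 tested genes below 0 and a median of -0.41. Both estradiol pools lay below both placebo pools for 5 of the 9, 55.6% against 14.0% of all tested genes. The globin genes Hbb, Hbb-b1 and Hba-a3 were past the unadjusted level, at -1.13, -0.92 and -0.88. Of all tested genes 0.880% were lower at that level. Another globin gene, Hbe1, at 0.26, and Cd4, at 0.68, had both estradiol pools above both placebo pools, each with placebo 1 at background. The summed intensity of 10 measured blood markers was 2327 and 4496 with estradiol against 6494 and 5614, and 7 of them were above background on all arrays. Most of each sum came from Hbb, at 959 and 2310 against 3517 and 3055, and Hbb-b1, at 694 and 1655 against 2290 and 1819. All 10 tested vascular markers were below 0, with a median of -0.18, while 52.4% of all tested genes were above 0. Over all 14 measured vascular markers the median was -0.09. Of those not tested, Abcb1a, Vwf and Des were above 0 and Myh11 below. Among the tested vascular markers 2 were past the unadjusted level. These were Ocln, a tight junction protein, at -0.83 and Slco1a4, a transporter of brain endothelium, at -0.53. In a list of skeletal muscle, heart and retina markers the 6 tested genes were above 0 with a median of 0.43, but over all 11 measured genes the median was 0.19, 0 were past the unadjusted level and 1 of the 6 had separated groups. Their sums were 576 and 591 against 449 and 509, with 3 of 11 above background on all arrays. The part of these markers in the values of Cacnb1, Cacnb2, Scn7a, Scnn1a and Scnn1g was not tested.

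The promoter windows of Cacnb2 are shown because it was the only gene past the unadjusted level. RefSeq gives it 2 starts on GRCr8, both on the + strand, at chr17:82472965-82473264 and chr17:82596542-82596841. Capitals mark the GC box GGGCGG on either strand, the motif bound by Sp1.

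Cacnb2, first window: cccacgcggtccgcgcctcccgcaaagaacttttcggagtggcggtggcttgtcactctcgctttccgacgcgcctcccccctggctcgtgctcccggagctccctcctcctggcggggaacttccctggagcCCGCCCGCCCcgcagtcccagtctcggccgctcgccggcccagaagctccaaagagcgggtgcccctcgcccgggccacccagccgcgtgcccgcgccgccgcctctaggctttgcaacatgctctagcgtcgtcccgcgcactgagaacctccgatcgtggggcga

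Cacnb2, second window: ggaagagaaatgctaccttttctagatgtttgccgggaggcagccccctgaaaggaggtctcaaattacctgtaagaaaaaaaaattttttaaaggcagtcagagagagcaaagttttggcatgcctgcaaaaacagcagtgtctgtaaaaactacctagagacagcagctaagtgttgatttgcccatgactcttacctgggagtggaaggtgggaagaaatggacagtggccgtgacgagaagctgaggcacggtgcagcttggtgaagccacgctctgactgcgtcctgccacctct

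The first window has 71.7% G and C and 2 overlapping GC box matches, which form a single run of capitals. The second window has 48.7% and no match. Neither contains GGTCA. A GC box was found in 33.1% of all windows and in 21 of the 46 windows of channel genes, 45.7%. The windows also differed in G and C, with a median of 51.7% over all and 60.1% over those of channel genes. Some windows of the same gene overlap, as for Cacna2d1. Whether the GC box share differs beyond this was not tested. The arrays do not separate transcripts from the 2 starts.

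Of the calcium release channels, Itpr1 and Itpr3 were tested. Itpr1 encodes the main IP3 receptor of neurons, and its probe set of highest mean stood at 403 and 495 in the estradiol pools against 388 and 533 in the placebo pools. The pools overlapped, and the log2 fold change was -0.03 with a 95% interval from -0.57 to 0.52. Itpr3 had 309 and 267 against 326 and 281 and a log2 fold change of -0.07 ± 0.21 (SE), and its second probe set gave -0.10. Ryr2, the ryanodine receptor of heart and brain, stood between 22.1 and 32.1 on all arrays, within the background.

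The 4 further probe sets of Itpr1 each had both estradiol pools below both placebo pools. This order was found in 14.0% of all tested genes, each read by its probe set of highest mean. The 4 belong to 1 gene and most fell short of the intensity floor, so that share is not a like reference. The only one of them tested stood at 12.2 and 34.2 in the estradiol pools, at background, against 63.6 and 89.5 in the placebo pools, and was at least 2.11-fold lower with estradiol. It passed the intensity floor through its placebo values, since both estradiol values lay below that floor. Its fitted log2 fold change was -1.28 ± 0.40 (SE), with an unadjusted p of 0.0136 and an adjusted p of 0.998 in limma. The fit took the estradiol values at background as measured, so this size and p are not firm. A further probe set stood at 4.1 and 4.1 in the estradiol pools against 43.1 and 43.0 in the placebo pools, at least 1.20-fold lower. The next stood at 15.3 and 10.9 against 21.9 and 38.9, above background in placebo 2 alone, and the last lay between 8.0 and 12.3, at background throughout. These 4 probe sets were singled out after their values were seen. Which exons they detect was not analysed here. With the mean over both tested probe sets, the gene's log2 fold change was -0.65, against -0.03 for the probe set of highest mean alone. The averaged value therefore rests on the probe set at background with estradiol.

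**Figure D3:**
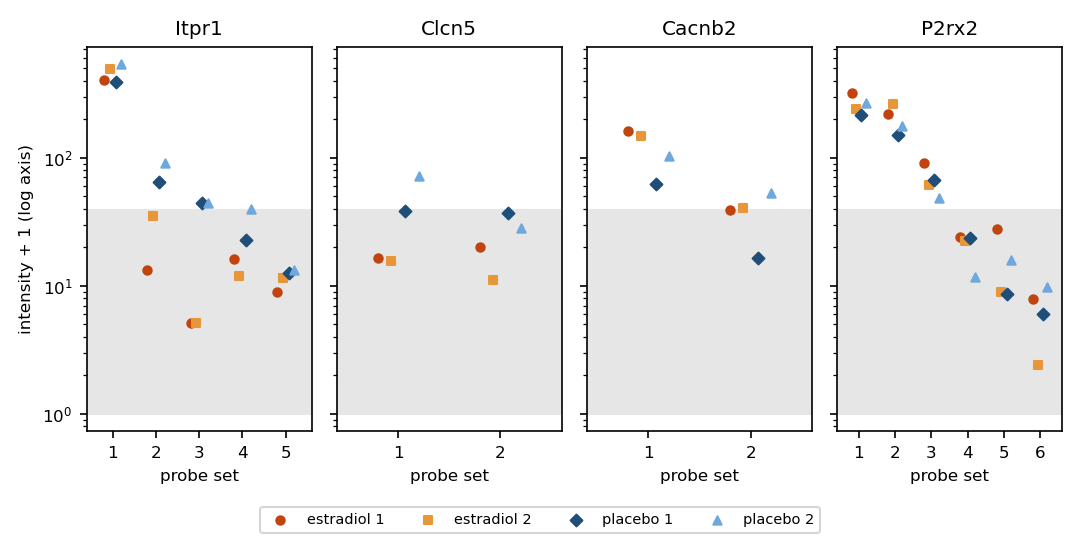
Intensity plus 1 on a log axis for every probe set of Itpr1, Clcn5, Cacnb2 and P2rx2, numbered from the highest mean to the lowest, with 1 symbol per pool of 3 animals. Grey marks values up to 37.8, the highest foreign control. Probe set 1 of Itpr1 overlaps between treatments, at 388 to 533 with placebo, while in probe set 2 the placebo pools stand at 63.6 and 89.5 and the estradiol pools lie in the grey area.

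Chloride channel genes of the ClC family differed little where they were above background. Clcn3, an endosomal and synaptic vesicle exchanger, stood at 281 and 271 in the estradiol pools against 241 and 277.5 in the placebo pools, with a log2 fold change of 0.09 ± 0.21 (SE). Clcn4 had 73.1 and 69.7 against 47.7 and 90.7, the placebo pools at both ends. Clcn5, the endosomal exchanger mutated in Dent disease, was not tested but had lower estradiol values in both its probe sets. They stood at 15.4 and 14.7 against 37.0 and 71.5, and at 19.1 and 10.0 against 35.8 and 27.0. Of these 8 values 1, that of 71.5 in placebo 2, lay above the background of its array, so the difference rests on that pool. With no intensity floor, the first probe set was past an unadjusted p of 0.05. Clcn7 and Clcn1 lay between 16.8 and 35.8.

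TRP channel values rested on single pools. Trpc1, a widely expressed cation channel, stood at 251 and 172 against 182 and 200, with a log2 fold change of 0.12 ± 0.25 (SE), and its other probe set gave 0.00. Trpc4 stood at 47.0 and 58.5 in the estradiol pools against 21.6 and 56.9 in the placebo pools. Placebo 1 stood apart at background, and the log2 fold change of 0.39 was -0.09 without it. Trpv1, the capsaicin and heat receptor of sensory neurons, had 44.7 and 21.8 against 19.5 and 105. Its value of -0.45 ± 0.59 (SE), the lowest of the 34 genes, was 0.43 without placebo 2.

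Acid-sensing channels open to protons in acidotic tissue, and of the 2 tested genes Asic1 had separated groups. Asic1, the subunit held to carry acid-evoked calcium entry in neurons, stood at 102 and 104 in the estradiol pools against 130 and 148 in the placebo pools. Both estradiol pools lay below both placebo pools, and the log2 fold change was -0.38 ± 0.23 (SE) with an unadjusted p of 0.130 in limma. Asic2 stood at 191 and 278 against 255 and 204. Its log2 fold change of 0.01 turned negative after median centring and quantile normalisation, and its other probe set gave -0.10. Asic3 was above background in placebo 1 alone, at 49.6.

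P2X receptors are cation channels opened by ATP. P2rx2, a slowly desensitising neuronal subunit, had 6 probe sets. The main one stood at 318 and 240 against 213 and 267, with overlapping groups and a log2 fold change of 0.20 ± 0.24 (SE). Another stood at 218 and 263 in the estradiol pools against 148 and 176 in the placebo pools, with both estradiol pools higher, a log2 fold change of 0.53 ± 0.22 (SE) and an unadjusted p of 0.0483 in limma. A further tested probe set gave 0.32, and the other 3 were at background on all arrays. P2rx3, known from pain-sensing neurons, stood at 91.5 and 71.5 against 15.7 and 87.4. Its log2 fold change of 0.76 ± 0.52 (SE) came from placebo 1, which was at background, and was -0.09 without that pool. P2rx4, a microglial and neuronal receptor, had 54.0 and 54.4 in the estradiol pools against 54.6 and 85.9 in the placebo pools, the lowest value of the family at -0.27 ± 0.31 (SE), and without placebo 2 it was -0.01. P2rx6 had 39.8 and 72.5 against 19.7 and 42.4, with a log2 fold change of 0.62 ± 0.42 (SE). P2rx7, the microglial receptor of inflammasome activation, stood between 8.60 and 25.8, at background.

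Between the 2 placebo pools most channel genes differed in 1 direction. Of the 34 tested genes, 29 were lower in placebo 1 than in placebo 2, or 85.3%, against 55.6% of all tested genes. Placebo 1 had the lowest intensity of the 4 arrays for 19 of them, 55.9% against 30.7% of all genes, and placebo 2 the highest for 15, 44.1% against 26.3%. The median difference between placebo 1 and placebo 2 was -0.32 on the log2 scale, against -0.05 over all genes, and that between estradiol 1 and estradiol 2 was -0.08, against -0.02. All 6 tested alpha-1 subunits, all 6 auxiliary subunits, all 4 tested P2X and all 3 TRP genes were lower in placebo 1 than in placebo 2. Exceptions to this order were Scn7a, Scn9a, Scnn1g, Itpr3 and Asic2. The largest differences between the placebo pools were those of Trpv1 and P2rx3, at -1.77 and -1.71, followed by Scn1a at -1.05.

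The direction of the list between treatments therefore depended on which placebo pool was used. Without placebo 1 the median log2 fold change was -0.11, with 12 genes above 0 and 22 below. Without placebo 2 it was 0.31, with 26 above 0 and 8 below. The median over all probe sets stayed between -0.01 and 0.02 in these fits. The median of the epithelial sodium channels, over only 2 tested genes, was 0.62 in either case. With all arrays and no intensity floor it was 0.50 over 3 genes.

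Neuron markers differed between the placebo pools in the same direction. Of 20 tested neuron markers, 19 were lower in placebo 1 than in placebo 2, with a median difference of -0.46 on the log2 scale, and 12 were lowest in placebo 1. Their summed intensity over 21 measured genes was 24270 and 25015 in the estradiol pools and 23683 and 30043 in the placebo pools. Markers of choroid plexus and meninges went the other way, with sums of 9461 in placebo 1 and 802 in placebo 2 over 10 measured genes, and 1047 and 5396 in estradiol 1 and 2. In placebo 1 and estradiol 2 most of this was Ttr, the transthyretin gene of choroid plexus, which stood at 8034 and 74.3 in the placebo pools and 165 and 4312 in the estradiol pools. The other 9 genes summed to 1426 and 728 in the placebo pools and 882 and 1084 in the estradiol pools. Vascular markers summed to 2925 and 2095 in the placebo pools and 2201 and 2036 in the estradiol pools, and oligodendrocyte markers to 22097 and 14221 and to 17781 and 13526. The part of these markers in the channel values was not tested.

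**Figure D4:**
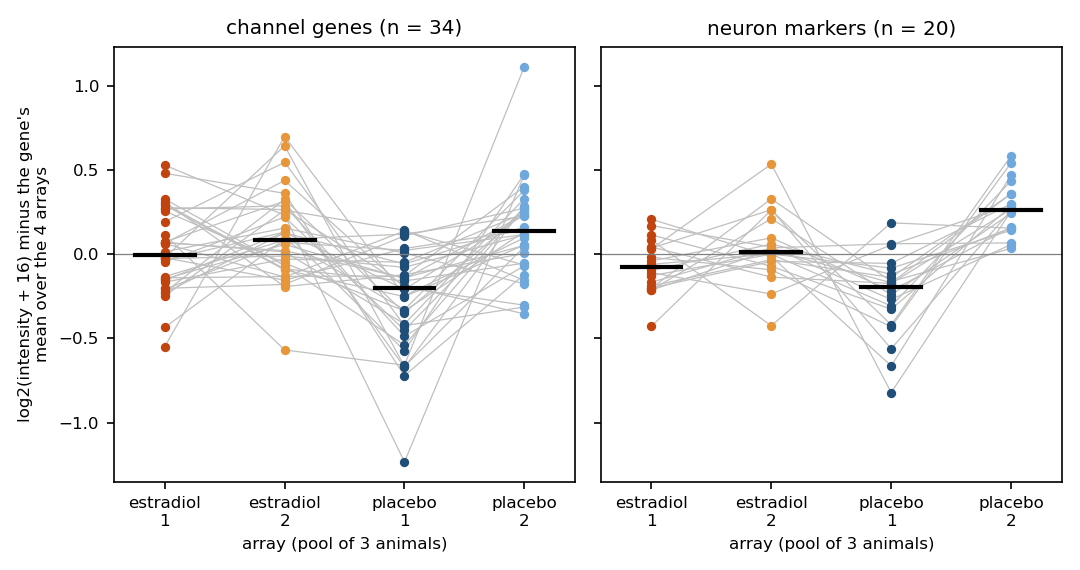
Deviation of each gene from its mean over the 4 arrays, on the log2(intensity + 16) scale, for the 34 tested channel genes (left) and the 20 tested neuron markers (right). Grey lines join the values of 1 gene, and black bars mark medians. The channel gene medians are 0.00, 0.09, -0.20 and 0.14 and those of the neuron markers -0.08, 0.01, -0.20 and 0.26, in the order of the axis.

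Genes that handle calcium or anchor channels showed no shared direction. Of 42 listed genes 35 were measured and 28 tested, of which 12 had log2 fold changes above 0 and 16 below, with a median of -0.06 and 0 past an unadjusted p of 0.05 in limma. The lowest were Slc8a1, the sodium/calcium exchanger, with -1.22 ± 0.55 (SE), and Atp2b4, a plasma membrane calcium pump, with -0.84 ± 0.41 (SE). Slc8a1 stood at 435 and 96.5 in the estradiol pools against 467 and 557 in the placebo pools, and its lowest pool was estradiol 2, far below estradiol 1. Atp2b4 stood at 27.1 and 86.1 against 102 and 104, with estradiol 1 at background. The highest were Calb1, the calcium buffer calbindin, with 0.49, and Ank3, the ankyrin that holds sodium channels at the axon initial segment, with 0.42 ± 0.23 (SE). Calb1 stood at 277 and 265 against 125 and 279, with placebo 1 alone low. Ank3 stood at 237 and 279 in the estradiol pools against 166 and 213 in the placebo pools, both estradiol pools above both placebo pools.

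Probe sets of the same gene often differed. Of 17 channel genes with several probe sets, 8 had at least 2 tested. All tested probe sets shared a sign in 4 of these, Cacna1a, P2rx2, Itpr1 and Itpr3, and the signs differed in the other 4, Cacna1b, Scn8a, Trpc1 and Asic2.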

How the data were processed

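Values are used as deposited, as a linear intensity for each probe set on each array. Means after trimming 2% at each end were nearly equal (150.18 to 150.20), as in values scaled to a common level. Which software made them was not given in the sources used here. The number of arrays limits the precision.

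Controls (59 of 8799 probe sets) were not tested. All 81 member probe sets had 1 symbol in the platform annotation, and RefSeq gene identifiers changed 0 of these symbols. Intensities were transformed as log2(value + 16), and the 5244 probe sets with a mean at or above the 40th percentile (37.5) were tested. Estradiol and placebo were compared with limma 3.58.1 in R 4.3.3 (lmFit, eBayes with an intensity trend, two-sided), with Benjamini-Hochberg adjustment over all tested probe sets and a threshold of 0.05. The fit had 2 residual and 5.63 prior degrees of freedom. It was tested on simulated data. Its p-values set each difference against the spread between pools, moderated across probe sets, and not against the spread between animals.

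A probe set was called at background in a group when both its arrays lay at or below their highest foreign control. Folds against background are lower bounds. The bound sets the brighter group's mean log2 intensity against the dimmer group's, each array of the latter raised to that control. Members and lists were chosen with earlier results of these data known. Genes were given with all values when they had an unadjusted p below 0.05, separated groups with an absolute log2 fold change of at least 0.5, the highest mean of their family, or the highest or lowest log2 fold change of a family with at least 3 tested genes. Plots were made with Python 3.11.15 and matplotlib 3.10.9. Pseudocounts, filters, scaling, the block, the trend and each array were varied.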

Additional observations from a re-analysis of the deposited data

How the results depend on the processing

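In 13 other settings, 0 channel genes and 0 probe sets passed the adjusted threshold in limma (the mean of a gene's probe sets was tried for genes alone). The smallest adjusted p of a channel gene was at least 0.956. The 1 channel gene past an unadjusted p of 0.05 became 2 with a pseudocount of 64, 2 with no filter and 2 with the replicate block. It became 3 with no intensity trend. With probe sets averaged per gene the count was 4: Cacnb1, Cacnb2, Scnn1a and Itpr1, the last through its probe set at background with estradiol. With 1 array left out this count lay between 0 and 3. It was 0 without estradiol 1 or estradiol 2, 1 (Trpv1, lower) without placebo 1 and 3 (P2rx3, Cacnb1 and Cacnb2) without placebo 2. The median log2 fold change of the channel genes lay between 0.01 (filter at the 60th percentile) and 0.12 in the alternatives that kept all arrays, and between -0.11 (without placebo 1) and 0.31 (without placebo 2) with 1 array left out. The cause was not tested. Restricted to the 28 genes above background on all arrays, an alternative chosen after seeing the data, it was 0.09.

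With 1 array left out, the log2 fold change ranged from -0.00758 to 0.18 for Clcn3, from -0.0924 to 1.61 for P2rx3, from -0.13 to 0.37 for Trpc1, from -0.0896 to 0.87 for Trpc4, from -1.34 to 0.43 for Trpv1, from -0.24 to 0.27 for Asic2. It ranged from -0.28 to 0.0753 for Cacna1b, from -0.0321 to 0.44 for Cacna1e, from -0.28 to 0.10 for Cacna1g, from -0.28 to 0.000141 for Cacnb3, from -0.25 to 0.20 for Itpr1 and from -0.40 to 0.30 for Scn2a. Asic2 had -0.0193 after median centring, -0.00758 after quantile normalisation and -0.0453 with the mean of its probe sets, and Cacna1b had 0.0848 with that mean. Of 21 named genes, 9 kept their sign in every alternative run for them.

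The labels do not say whether pools of the same number share anything beyond that number. Differences between pools 1 and 2 correlated between the treatments with r = 0.0363 across probe sets, which are not independent replicates. For the tested immediate early genes, however, the median log2 difference between pools 1 and 2 was 0.89 in both treatments. A factor shared by pools of the same number was not tested. With the replicate block, probe sets past an unadjusted p of 0.05 went from 91 higher and 70 lower to 123 and 87, and the adjusted count stayed at 0. After median centring the split of 91 to 70 became 71 to 90. The filter at the 60th percentile left 21 of the 34 genes. It removed Scnn1a, Scnn1g and Scn7a, and so every tested epithelial sodium channel gene. Channel genes with separated groups went from 6 higher and 4 lower to 2 and 2.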

Other observations

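Beyond the genes named by rule, and chosen after their values were seen, Homer2, a postsynaptic scaffold that binds IP3 receptors, stood at 77.2 and 66.7 in the estradiol pools against 49.9 and 49.9 in the placebo pools, a log2 fold change of 0.41 ± 0.28 (SE). Casq2, the calsequestrin of calcium stores in heart, went the other way, at 48.6 and 53.4 against 78.6 and 89.5, a log2 fold change of -0.58 ± 0.27 (SE). Neither passed the adjusted threshold in limma. Immediate early genes summed to 16115 and 6538 in estradiol 1 and 2 and to 16068 and 6206 in placebo 1 and 2 over 24 measured genes. In both treatments pool 1 had the higher sum.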
